A study of Mus musculus with 41 samples.

Results

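Meningeal fibroblasts are the collagen-producing cells of the membranes that wrap the brain, and this account follows 10 genes used as their markers in mouse hippocampus: Igf2, Dcn, Ptgds, Col1a1, Col1a2, Col3a1, Slc6a13, Aldh1a2, Ogn and Fmod. Members were chosen by symbol. Every probe set whose platform annotation named 1 of the 10 genes alone was taken, which gave 23 of 45101 probe sets and 10 of 18193 genes with a probe set of a single symbol. The brightest probe set by its mean over all arrays stands for each gene.

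The RNA came from hippocampi of 41 male C57BL/6J mice, an inbred strain, hybridised singly to Affymetrix expression arrays. The mice had entered a behavioural battery at an age of 10 weeks, and the last test ran in weeks 37 to 38. Their RNA was extracted 1 month after testing had ended. Cognition was ranked with results of 5 of the tests, by a pair of ranking systems. The groups were 5 mice ranked high by both systems, 12 ranked medium, 8 ranked low, 14 ranked inconsistently and 2 with incomplete behavioural data. The labels name no engineered allele and no drug, and all mice went through the behavioural battery. Inconsistent replicate 2 also carries a description as medium, and it was kept in the inconsistent group. The labels do not say whether meninges or choroid plexus were removed from the tissue.

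The outer surface of the hippocampus carries pia, the innermost of the meninges, and meninges also follow vessels into its fissure. Fibroblasts there lay down fibrillar collagens and small leucine-rich proteoglycans, which bind collagen fibrils. They also release signalling molecules, among them insulin-like growth factor 2, retinoic acid and a prostaglandin D synthase that passes into cerebrospinal fluid. Igf2 and Ptgds are known from the choroid plexus as well, the tissue that secretes cerebrospinal fluid, and Ptgds from oligodendrocytes.

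Of the 10 members, Ptgds, Fmod, Ogn, Aldh1a2 and Col1a2 moved together from mouse to mouse. Col3a1 and Slc6a13 moved with these 5 genes, but fell below the brightness limit for testing that is given further on. Upstream sequences of the 5 are shown because their levels shared that pattern, and those of Col3a1 and Slc6a13 are not shown. The sequences are the 250 bases that end just before the annotated start of each gene, from RefSeq on build GRCm38.p6, written 5′ to 3′ on the gene's strand. A window of this table was matched for 8 of the 10 members. The Ptgds window is chr2:25469750-25469999 on the minus strand. On the plus strand lie the windows of Fmod at chr1:134037004-134037253, Ogn at chr13:49607765-49608014, Aldh1a2 at chr9:71215539-71215788 and Col1a2 at chr6:4505368-4505617. Capitals mark matches, on either strand, to CCAAT (the core of the CCAAT box), to TATAAA (a form of the TATA box), to GGGCGG (a form of the GC box) and to TGACTCA (a form of the site known for AP-1 factors).
Ptgds: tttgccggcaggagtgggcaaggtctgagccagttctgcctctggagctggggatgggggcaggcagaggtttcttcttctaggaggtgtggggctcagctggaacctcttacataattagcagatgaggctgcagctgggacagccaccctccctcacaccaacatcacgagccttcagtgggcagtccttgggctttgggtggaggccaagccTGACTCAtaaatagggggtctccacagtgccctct
Fmod: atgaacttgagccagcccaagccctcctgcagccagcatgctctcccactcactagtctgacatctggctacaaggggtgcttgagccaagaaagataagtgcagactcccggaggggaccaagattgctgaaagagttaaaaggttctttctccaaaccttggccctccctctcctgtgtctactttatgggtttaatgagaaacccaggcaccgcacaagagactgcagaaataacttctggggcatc
Ogn: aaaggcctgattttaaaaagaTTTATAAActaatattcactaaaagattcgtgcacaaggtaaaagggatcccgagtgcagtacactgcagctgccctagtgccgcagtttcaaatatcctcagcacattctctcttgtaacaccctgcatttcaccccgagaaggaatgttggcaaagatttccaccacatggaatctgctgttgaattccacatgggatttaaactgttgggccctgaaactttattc
Aldh1a2: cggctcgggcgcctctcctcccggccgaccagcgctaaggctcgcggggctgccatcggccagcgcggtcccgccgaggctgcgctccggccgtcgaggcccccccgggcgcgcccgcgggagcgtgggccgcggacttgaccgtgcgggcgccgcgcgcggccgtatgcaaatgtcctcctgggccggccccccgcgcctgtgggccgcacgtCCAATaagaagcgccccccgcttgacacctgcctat
Col1a2: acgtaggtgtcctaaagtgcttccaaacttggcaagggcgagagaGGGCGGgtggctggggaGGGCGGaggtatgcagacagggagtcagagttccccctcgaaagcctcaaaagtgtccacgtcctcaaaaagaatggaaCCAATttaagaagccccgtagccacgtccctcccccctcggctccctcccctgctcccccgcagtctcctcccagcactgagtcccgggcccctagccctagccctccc

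Ptgds held TGACTCA from 35 bases before its start. Aldh1a2 held CCAAT from 36 bases before its start, and Col1a2 held it from 109 bases before its start, beside GGGCGG at 205 and 188. Ogn held TATAAA on both strands, in overlapping matches at 229 and 227 bases before its start. Fmod matched none of the 4 motifs in its window. Among 32851 RefSeq windows of 250 bases, 33.8% held CCAAT, 32.7% GGGCGG, 12.4% TATAAA and 4.46% TGACTCA. No motif was found in all 5 windows, and a match describes letters only.

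Levels are given as log2(intensity + 16) after quantile normalization, which gives all arrays the same distribution. Probe sets at or above a mean of 5.74, the median of all probe sets that are not array controls, were tested. This kept 10 of the 23 member probe sets and 7 of the 10 genes. Slc6a13 fell just below the limit with a mean of 5.73, Col3a1 had 5.28 and Col1a1 had 4.85, so these 3 genes have levels but no test between groups. A level of 1 probe set cannot be set against that of another, so genes are compared only in how they varied. In bulk tissue, fewer cells of a type and less RNA per cell cannot be told apart.

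The arrays resembled each other, with pairwise correlations over probe sets of 0.949 to 0.993. Medium replicate 9 stood apart: without it the lowest was 0.967. Its mean over 8 striatal markers was 8.92, against at most 8.16 on the other arrays, and its mean over 12 hippocampal neuron markers was 8.02. Its Actb 3-prime probe set exceeded the 5-prime one by 1.10, a sign of RNA quality that was at most 0.61 on the other arrays. Arrays also fell into 3 sets of 7, 10 and 24 by 45 spike-in control probe sets, a grouping made for this work and not a batch named by the labels. The set of 24 held 4 high, 5 medium and 5 low arrays.

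Another split touched Igf2 directly. The mean of 9 tested choroid plexus markers, of 20 listed, was 8.38 to 9.61 on 11 arrays and 5.93 to 7.25 on the other 30, with none between. The 11 bright arrays comprised 0 high, 4 medium, 3 low, 3 inconsistent and 1 incomplete. None of the 9 markers passed the test between groups.

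Igf2, the secreted growth factor that is expressed from the paternal allele in most tissues, varied the most among the 7 tested members. On the 5 high arrays it measured 6.81, 8.46, 6.96, 7.46 and 7.90. The lowest, median and highest values were 7.39, 8.04 and 9.51 on the 12 medium arrays and 6.94, 8.34 and 9.51 on the 8 low arrays. They were 7.03, 7.83 and 9.32 on the inconsistent arrays, and the incomplete pair had 9.05 and 7.20. By median the order from the top was low, incomplete, medium, inconsistent and high, and neighbouring groups overlapped. All values above 8.64 came from arrays bright in choroid plexus markers.

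Igf2 averaged 7.52 ± 0.68 on high and 8.32 ± 1.00 on low arrays (SD, n = 5 and 8), a difference of -0.80 ± 0.42 (SE). The 95% confidence interval ran from -1.66 to 0.06, and limma's adjusted p was 0.641. Against the medium mean of 8.28 ± 0.69 (SD, n = 12), the difference was -0.76 ± 0.39 (SE), with limma's adjusted p of 0.408. Without the 11 choroid-bright arrays, the differences were -0.18 for high minus low and -0.34 for high minus medium. With the choroid plexus marker mean as a covariate they were -0.19 and -0.25. The median difference of the 9 choroid markers was -1.10 in high minus low and -0.87 in high minus medium.

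Ptgds, the lipocalin-type enzyme that makes prostaglandin D2, was a bright member. The high arrays measured 11.60, 12.82, 11.69, 11.88 and 12.04. The lowest, median and highest values were 11.80, 12.23 and 12.56 on medium, 11.59, 12.21 and 12.83 on low and 11.31, 12.10 and 12.79 on inconsistent arrays, while the incomplete pair had 11.39 and 12.05. By median the order was medium, low, inconsistent, high and incomplete, with overlap throughout. High replicate 2 sat with the top of the other groups, and the other 4 high arrays lay at or below 12.04. The high minus low difference was -0.24 ± 0.20 (SE, limma's adjusted p = 0.795).

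Aldh1a2 encodes a retinaldehyde dehydrogenase that makes retinoic acid, and it differed widely between mice of every group. The high arrays measured 5.39, 7.34, 5.61, 6.18 and 6.17. The lowest, median and highest values were 5.45, 6.35 and 7.20 on medium, 5.39, 6.50 and 7.85 on low and 5.29, 6.27 and 7.54 on inconsistent arrays. The incomplete pair had 5.71 and 6.32. By median the order was low, medium, inconsistent, high and incomplete, and neighbours did not differ beyond their spread. The high minus low difference was -0.46 ± 0.35 (SE, limma's adjusted p = 0.768).

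Col1a2, the second chain of type I collagen, measured 5.91, 7.28, 6.23, 6.52 and 6.29 on the high arrays. Its lowest, median and highest values were 6.09, 6.59 and 7.03 on medium, 6.17, 6.54 and 7.59 on low and 5.87, 6.35 and 6.96 on inconsistent arrays, and the incomplete pair had 6.14 and 6.29. High replicate 2 and low replicate 6 stood above every other array. Col3a1, the chain of type III collagen, had medians of 5.05 on high, 5.18 on medium, 5.45 on low, 5.28 on inconsistent and 5.31 on incomplete arrays, within a range of 4.56 to 6.29. Col1a1, the first chain of type I collagen, stayed between 4.44 and 5.42 on all 41 arrays, near the dim end of the array. Its group medians lay between 4.74 in medium and 4.90 in high.

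Fmod, Ogn and Dcn are small leucine-rich proteoglycans, which bind collagen fibrils or the matrix around them. Fmod, fibromodulin, measured 5.45, 7.52, 5.57, 6.08 and 6.12 on high arrays, and its lowest, median and highest values were 5.72, 6.56 and 7.33 on medium and 5.60, 6.35 and 7.69 on low arrays. On inconsistent arrays they were 5.42, 6.00 and 7.55, and the incomplete pair had 5.65 and 6.20. Fmod differed by -0.44 ± 0.34 in high minus low (SE, limma's adjusted p = 0.775), and the groups overlapped. Ogn, osteoglycin, measured 7.29, 8.72, 7.42, 7.34 and 7.34 on high arrays, so that the values of 4 lay close together and high replicate 2 stood apart from them. Its lowest, median and highest values were 7.05, 7.48 and 8.15 on medium, 7.37, 7.52 and 8.82 on low and 6.99, 7.31 and 8.35 on inconsistent arrays, and the incomplete pair had 7.38 and 7.62. Ogn differed by -0.16 ± 0.25 in high minus low (SE, limma's adjusted p = 0.913).

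Dcn, decorin, ran the other way in its group means. The high arrays measured 9.55, 10.43, 10.15, 10.54 and 10.34. The lowest, median and highest values were 8.42, 10.01 and 10.29 on medium, 9.49, 9.94 and 10.35 on low and 9.88, 10.05 and 10.34 on inconsistent arrays, and the incomplete pair had 9.83 and 10.43. The groups overlapped, and the value of 8.42 came from medium replicate 9. Dcn differed by 0.26 ± 0.22 in high minus low (SE, limma's adjusted p = 0.789) and by 0.30 ± 0.20 in high minus medium (SE, limma's adjusted p = 0.542). Without medium replicate 9 its SD over arrays was 0.23, against 0.34 with it.

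Slc6a13, the transporter GAT-2 for GABA and taurine, had a range of 4.64 to 6.50 on high, 4.74 to 6.20 on medium, 4.38 to 6.76 on low and 5.40 to 6.54 on inconsistent arrays. The group medians were 5.67, 5.71, 5.95 and 5.74 in that order, and 5.36 in the incomplete pair. The groups overlapped.

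**Figure D1:**
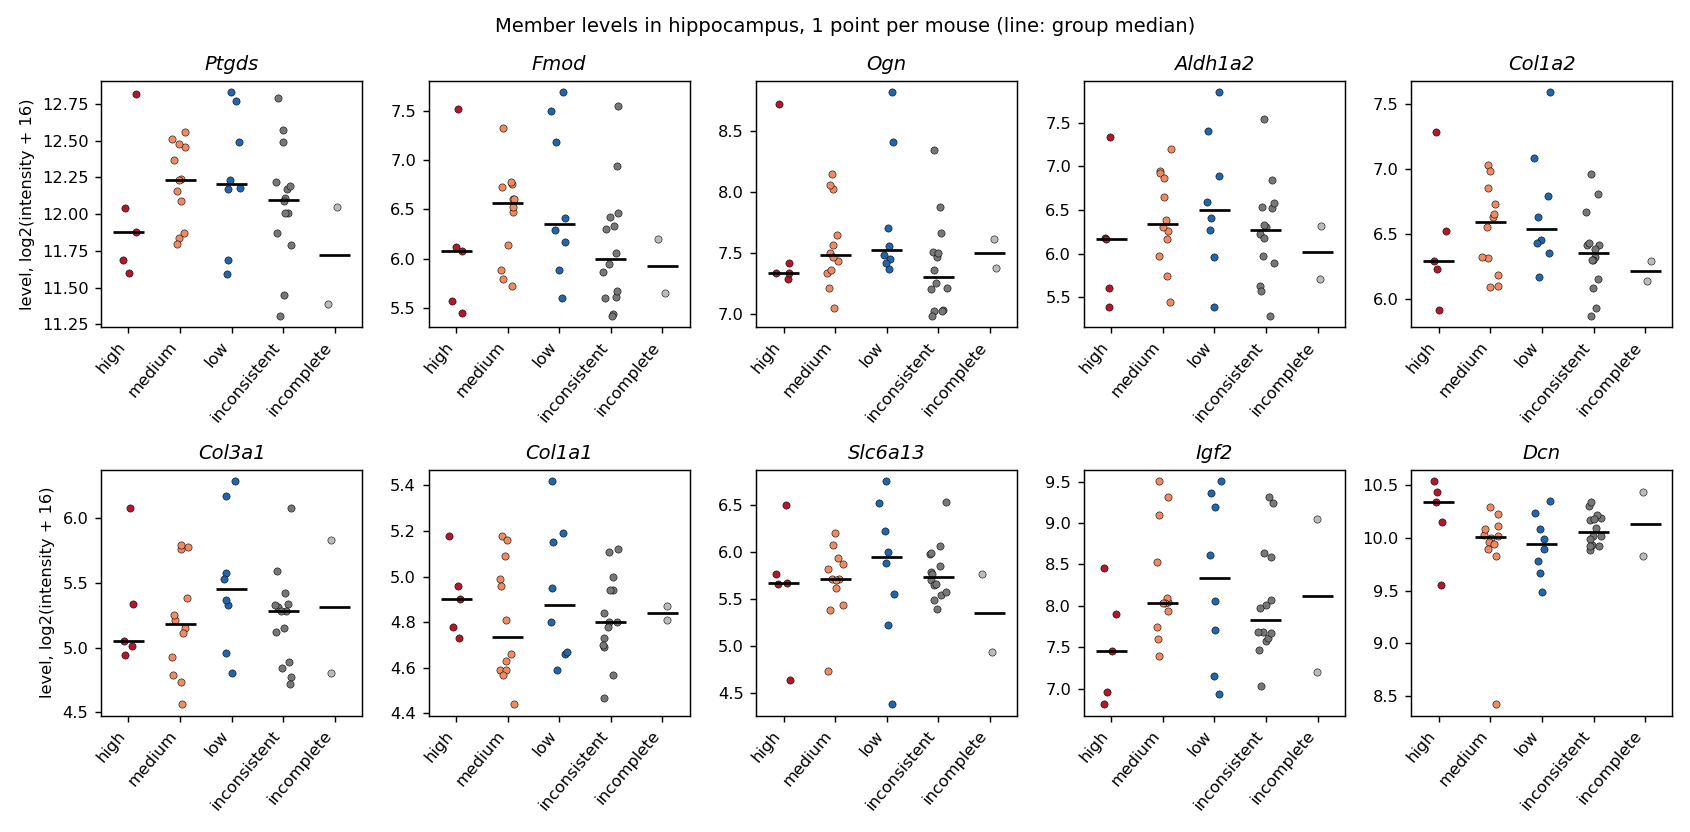
Levels of the 10 members in log2(intensity + 16), by cognition group, with 1 point per mouse and a line at the group median. High replicate 2 is the top high array for 9 members, and every group overlaps its neighbours.

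No member passed the test between cognition groups. The comparisons ask whether mice ranked apart in cognition differ in hippocampal RNA. In high minus low, limma called 0 of 7 members, with 0 at an unadjusted p under 0.05, and 2 of all 22519 tested probe sets, or 0.00888%, with 1837 at an unadjusted p under 0.05. Of the members 1 lay above 0 and 6 below, with a median of -0.24 beside a median of 0.01 over all tested probe sets, and limma's adjusted p ran from 0.641 to 0.913. In high minus medium, 0 of 7 members passed against a background of 0.0311%, 2 lay above 0 and 5 below, and the median was -0.21. Ogn had 0.06 there by its brightest probe set and -0.13 by its second. The second tested probe sets of Ptgds, Ogn and Fmod had -0.43, -0.19 and -0.50 in high minus low, and did not pass. In medium minus low, 0 of 7 passed against a background of 0%, 0 lay above 0 and 7 below, and the median was -0.15. The comparisons share arrays, and members that move together are not separate pieces of evidence. Over all tested probe sets, 2971 in high minus medium and 698 in medium minus low had an unadjusted p under 0.05. An exact rank-sum test called 0 members and 0 probe sets in each comparison, with 2051, 3455 and 667 at an unadjusted p under 0.05 in high minus low, high minus medium and medium minus low.

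**Figure D2:**
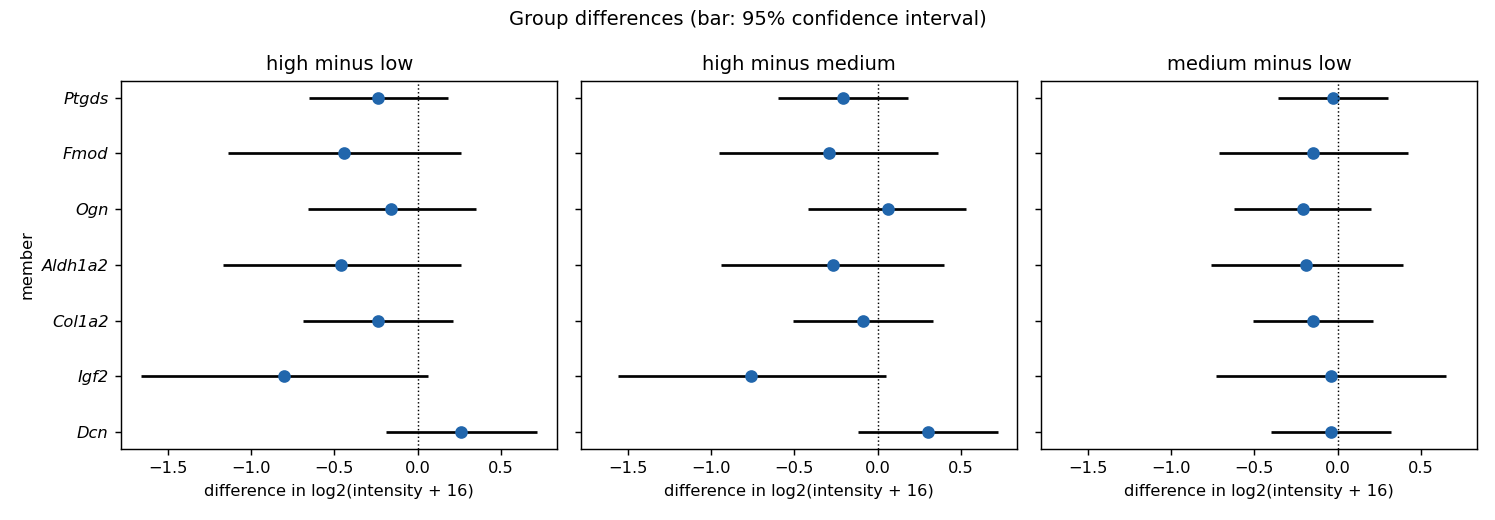
Differences between group means in log2(intensity + 16) for the 7 tested members, with 95% confidence intervals from limma. Every interval includes 0, and the interval of Igf2 in high minus low reaches from -1.66 to 0.06.

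A single array could shift these differences without changing a call. High replicate 2 was among the 4 highest arrays for 7 of 8 members that co-varied (the 5 above with Col3a1, Slc6a13 and Igf2). Without it, the high minus low difference was -0.76 for Aldh1a2, -0.78 for Fmod, -0.43 for Ogn and -1.03 for Igf2. Without low replicate 6 it was -0.28 for Aldh1a2, -0.28 for Fmod and -0.01 for Ogn. Within the spike-in set of 24, with its 4 high and 5 low mice, Aldh1a2 had -0.17, Fmod -0.18, Ogn -0.08 and Igf2 -0.44. Within the set of 10, with 1 high and 2 low arrays, Aldh1a2, Fmod, Ogn and Igf2 had -1.45, -1.44, -0.62 and -1.53. The set of 7 held 0 high arrays and gave no value.

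The same 4 arrays carried the top values of most members. Low replicate 6 was among the 4 highest arrays for 8 of 8 co-varying members, low replicate 4 and high replicate 2 for 7 each and inconsistent replicate 4 for 6. They came from 3 groups. High replicate 1 was among the 4 lowest arrays for 5 members and inconsistent replicate 9 for 4.

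**Figure D3:**
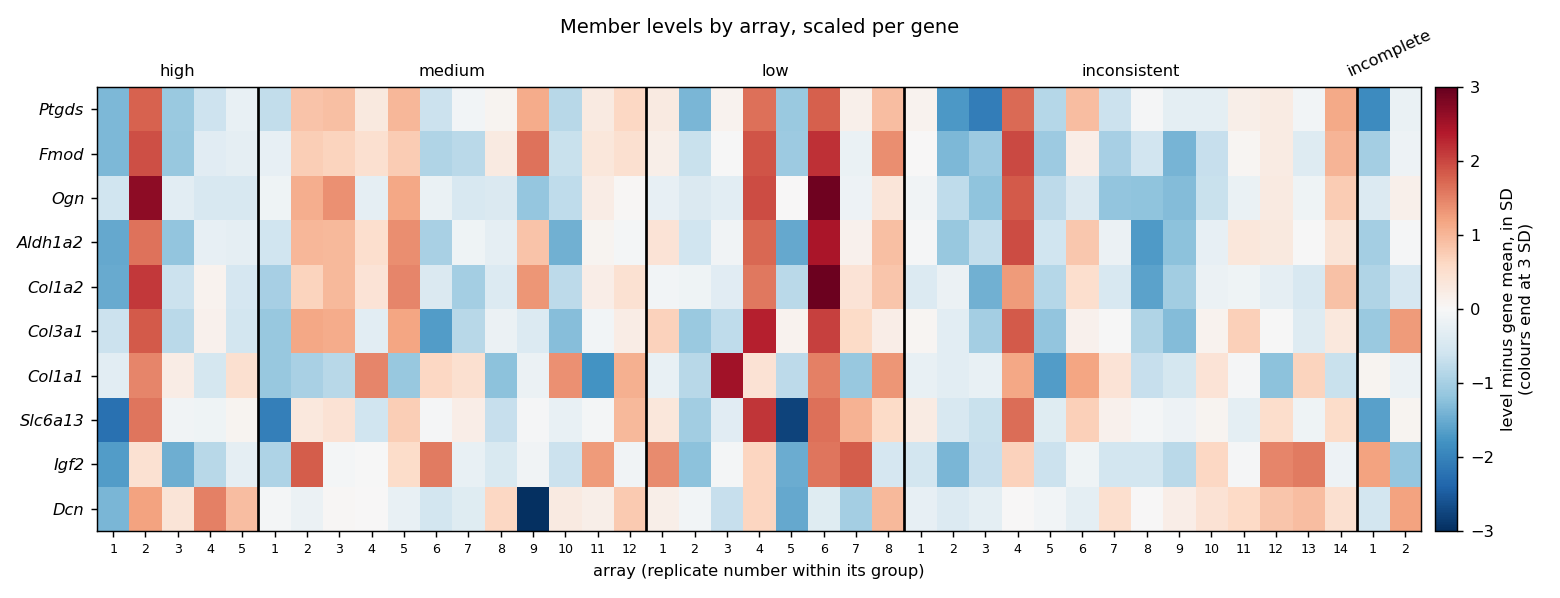
Levels of the 10 members on all 41 arrays, scaled per gene to SD from its mean, with arrays in columns by group. High replicate 2, low replicates 4 and 6 and inconsistent replicate 4 are high for most members, whereas Dcn and Col1a1 follow other patterns, with Dcn lowest on medium replicate 9.

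Co-variation across the 41 arrays was tested for the 21 pairs of the 7 tested members, and 15 pairs passed by Pearson's r and 15 by Spearman's rho (permutation test, adjusted over 21 pairs). Of the 15, 5 were pairs with Igf2, which are taken up within sets of arrays. The 10 pairs among Ptgds, Fmod, Ogn, Aldh1a2 and Col1a2 had r of 0.72 to 0.91 with a median of 0.85, and rho of 0.66 to 0.93. Their adjusted p was 2.1e-05 by r, from a raw p of 1e-05, the smallest that 100000 permutations can give. Ptgds with Fmod and Aldh1a2 with Fmod were at 0.91 each, and Ptgds with Ogn was lowest at 0.72. Without the 2 arrays farthest from the median of the first gene, the 10 pairs stayed at 0.70 to 0.93. Without the 4 top arrays, chosen after the values were seen, they had r of 0.53 to 0.87.

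The relation was also present within each spike-in set, where the 10 pairs had r of 0.84 to 0.98 in the set of 7, 0.50 to 0.97 in the set of 10 and 0.79 to 0.92 in the set of 24. The 3 untested members can be added as values. Among all 45 pairs of the 10 members, adjusted together, 28 passed by r and 28 by rho. Col3a1 had r of 0.75 to 0.82 with the 5 genes (adjusted permutation p = 2.37e-05 for each), and Slc6a13 had r of 0.59 to 0.77 (highest adjusted permutation p = 0.000321).

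Neither Dcn nor Col1a1 had a pair that passed by r or rho. Dcn had r of -0.02 to 0.22 with the 5 genes, and 0 of its 6 pairs passed (lowest adjusted permutation p = 0.20). Without medium replicate 9 its r with the 5 was 0.13 to 0.32. Col1a1 had r of 0.07 to 0.32 with the other 9 members, and 0 of 9 pairs passed. The 2 Col1a1 probe sets were both dim and had r of -0.02 with each other. The second one had r of 0.53 with Aldh1a2, so the probe sets of Col1a1 disagreed.

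Other genes with several probe sets agreed better where both were bright. The 2 tested Ptgds probe sets had r of 0.97, those of Ogn 0.91 and those of Fmod 0.91, while the untested Fmod probe sets had r of 0.60 to 0.86 with its brightest. The second Dcn probe set, at a mean of 4.75, had r of 0.18 with the first, and the second Igf2 probe set had 0.60. The second Col3a1 probe set, at a mean of 4.36, had r of 0.11 with the first and 0.16 with Aldh1a2. The Col1a2 probe sets at means of 4.79 and 4.25 had r of 0.50 and -0.01 with its brightest.

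Igf2 is given within the sets of arrays that its choroid split forms, since its own level differed between them. Its median was 9.24 on choroid-bright and 7.7 on choroid-low arrays. Over all arrays its r with the 5 genes was 0.44 to 0.53, and its rho was 0.5 to 0.65. This pooled r was lower than on the choroid-low arrays and higher than on the choroid-bright ones. On the 30 choroid-low arrays, Igf2 rose with Ptgds at r = 0.84, rho = 0.87 (adjusted permutation p = 3e-05 over 12 relations), with Aldh1a2 at 0.83, with Fmod at 0.80, with Col1a2 at 0.69 and with Ogn at 0.56 (adjusted permutation p = 0.0029). Without the 2 farthest arrays these were 0.80, 0.76, 0.72, 0.60 and 0.38. On the 11 choroid-bright arrays the 5 values were between 0.02 and 0.17, and 0 passed (lowest adjusted permutation p = 0.849). These low values rested in part on 2 arrays: without the 2 farthest, r on the 9 left was 0.54 with Ptgds, 0.43 with Aldh1a2, 0.31 with Fmod, 0.43 with Col1a2 and 0.35 with Ogn. The difference between the sets was not tested. On those 11 arrays Igf2 ranged from 8.53 to 9.51, a narrower range than the 6.81 to 8.64 on the 30 choroid-low arrays. Aldh1a2 ranged from 5.71 to 7.85 on the 11 and from 5.29 to 7.54 on the 30. The part of the narrower Igf2 range in the low r was not tested.

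**Figure D4:**
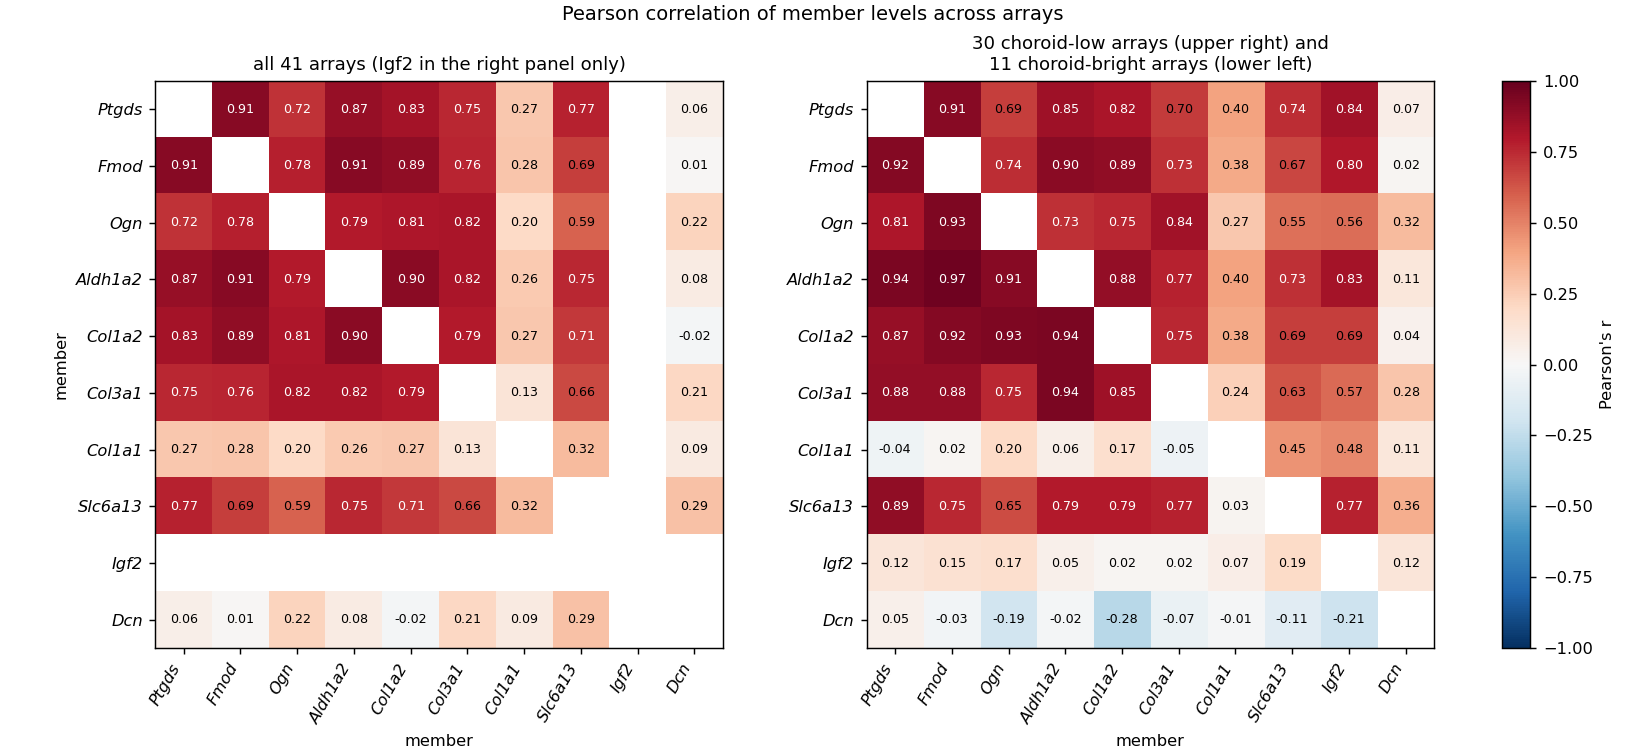
Pearson's r between the levels of pairs of members, over all 41 arrays on the left, where Igf2 is left blank. On the right, r is over the 30 choroid-low arrays above the diagonal and the 11 choroid-bright arrays below it. The block of Ptgds, Fmod, Ogn, Aldh1a2, Col1a2 and Col3a1 is dark in each set. Igf2 has r of 0.56 to 0.84 with the 5 tested genes in the upper right and 0.02 to 0.17 in the lower left, and Dcn stays pale.

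Other genes listed for the same cells are set beside the members as a description. The list was chosen with earlier results of these data known, so it is no independent check. Of 50 further meningeal fibroblast genes 26 were tested. Of the 26, 16, or 61.5%, had r over 0.5 with the mean of the 7 scaled members. The share was 0.609% of the 22509 other tested probe sets, counted by probe set and not by gene. Mgp, matrix Gla protein, had r of 0.88, Islr 0.88, Efemp1, the matrix glycoprotein fibulin-3, 0.89, and Serping1, the C1 inhibitor, 0.86. Against these stood Col5a1 at -0.19, S100a6 at 0.06 and Col6a1 at 0.13. The mean of the 26 genes had r of 0.84 to 0.89 and rho of 0.71 to 0.91 with each of the 5 co-varying members (adjusted permutation p = 0.0001 over 140 relations between members and lists), and its lowest and highest values were 6.71 and 7.35 on high, 6.83 and 7.19 on medium, 6.78 and 7.52 on low and 6.77 and 7.32 on inconsistent arrays. Dcn had r of 0.05 with this mean, so of the tested members it went against the label. No gene of the 26 passed in high minus low, where 3 lay above 0 and the median was -0.11.

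Markers of other cells moved with the members to unequal degrees. The 3 tested macrophage markers, of 9 listed, were Mrc1, the mannose receptor, Pf4 and F13a1, with r of 0.79, 0.66 and 0.66 to the mean of the members. Their mean had r of 0.88 and rho of 0.84 with Aldh1a2 (adjusted permutation p = 0.0001), 0.85 without the 2 farthest arrays and 0.96, 0.93 and 0.83 within the spike-in sets. It ranged from 5.58 to 6.42 on high, 5.57 to 6.36 on medium, 5.68 to 6.58 on low and 5.62 to 6.35 on inconsistent arrays. Of 9 pericyte and smooth muscle markers 2 had r over 0.5, Vtn, vitronectin, at 0.82 and Acta2, smooth muscle actin, at 0.71. None did among 10 myelin, 9 endothelial, 8 microglial, 9 astrocyte or 12 hippocampal neuron markers, whose median r were -0.11, 0.26, 0.10, 0.08 and -0.06. Of 9 choroid plexus markers 1 did, the sulfate transporter Slc13a4. As a list mean, the pericyte and smooth muscle markers had r of 0.58 to 0.65 with each of the 5 co-varying members (highest adjusted permutation p = 0.00084), and 0.37 to 0.52 without the 2 farthest arrays. Their rho was 0.17 to 0.48, and it did not pass for Ogn or Aldh1a2 (adjusted permutation p = 0.478 and 0.0585). The endothelial mean had r of 0.42 with Ptgds, 0.49 with Col1a2, 0.43 with Aldh1a2 and 0.47 with Fmod (highest adjusted permutation p = 0.0238), and 0.37 with Ogn, which did not pass (adjusted permutation p = 0.052). Within the spike-in sets of 7, 10 and 24 those 5 values were 0.67 to 0.76, 0.42 to 0.81 and 0.26 to 0.31. With Igf2 the endothelial mean had r of 0.37 within the 30 choroid-low arrays and 0.55 within the 11 choroid-bright ones. The part of these cells in the members' levels was not tested.

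Igf2 had r of 0.59 with the choroid mean within the 30 choroid-low arrays and 0.90 within the 11 choroid-bright arrays. The other 6 tested members had r of 0.02 to 0.25 with that mean over 41 arrays, none of which passed by r. Within the 30 choroid-low arrays they had r of 0.54 for Ptgds, 0.48 for Aldh1a2, 0.43 for Fmod, 0.32 for Col1a2, 0.32 for Ogn and 0.18 for Dcn, and within the 11 choroid-bright arrays all 6 lay between -0.38 and -0.09. The difference between Igf2 and the other members was not tested. Aldh1a2 passed by rho alone, at 0.40 (adjusted permutation p = 0.0471). Taking the choroid mean out of every member left 15 of 21 pairs past the threshold. The r of Igf2 with the mean of the 26 meningeal genes was 0.83 within the 30 arrays and 0.11 within the 11. Its r with the myelin mean was -0.21 within the 30 arrays and 0.55 within the 11. Over all 41 it was 0.39 (adjusted permutation p = 0.0388), with a rho of 0.28 that did not pass (adjusted permutation p = 0.204).

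Dcn had r of 0.52 and rho of 0.56 with the mean of 8 microglial markers (adjusted permutation p = 0.000636 by r and 0.0014 by rho), 0.60 without the 2 farthest arrays and 0.48 without medium replicate 9. Within the spike-in sets of 7, 10 and 24 that r was -0.02, 0.74 and 0.35. Dcn had r of -0.77 and rho of -0.42 with the striatal mean over 41 arrays (adjusted permutation p = 0.00181 by r and 0.0348 by rho). Within the spike-in sets of 7, 10 and 24 that r was 0.15, -0.92 and -0.41. It was -0.37 without medium replicate 9, so the size of the pooled r rests largely on that array, while a weaker negative r remained without it. With the Actb difference Dcn had r of -0.61 and rho of 0.08 (adjusted permutation p = 0.0631 by r), and r of 0.16 without that array. The part of RNA quality or of striatal tissue in the low Dcn value was not tested.

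**Figure D5:**
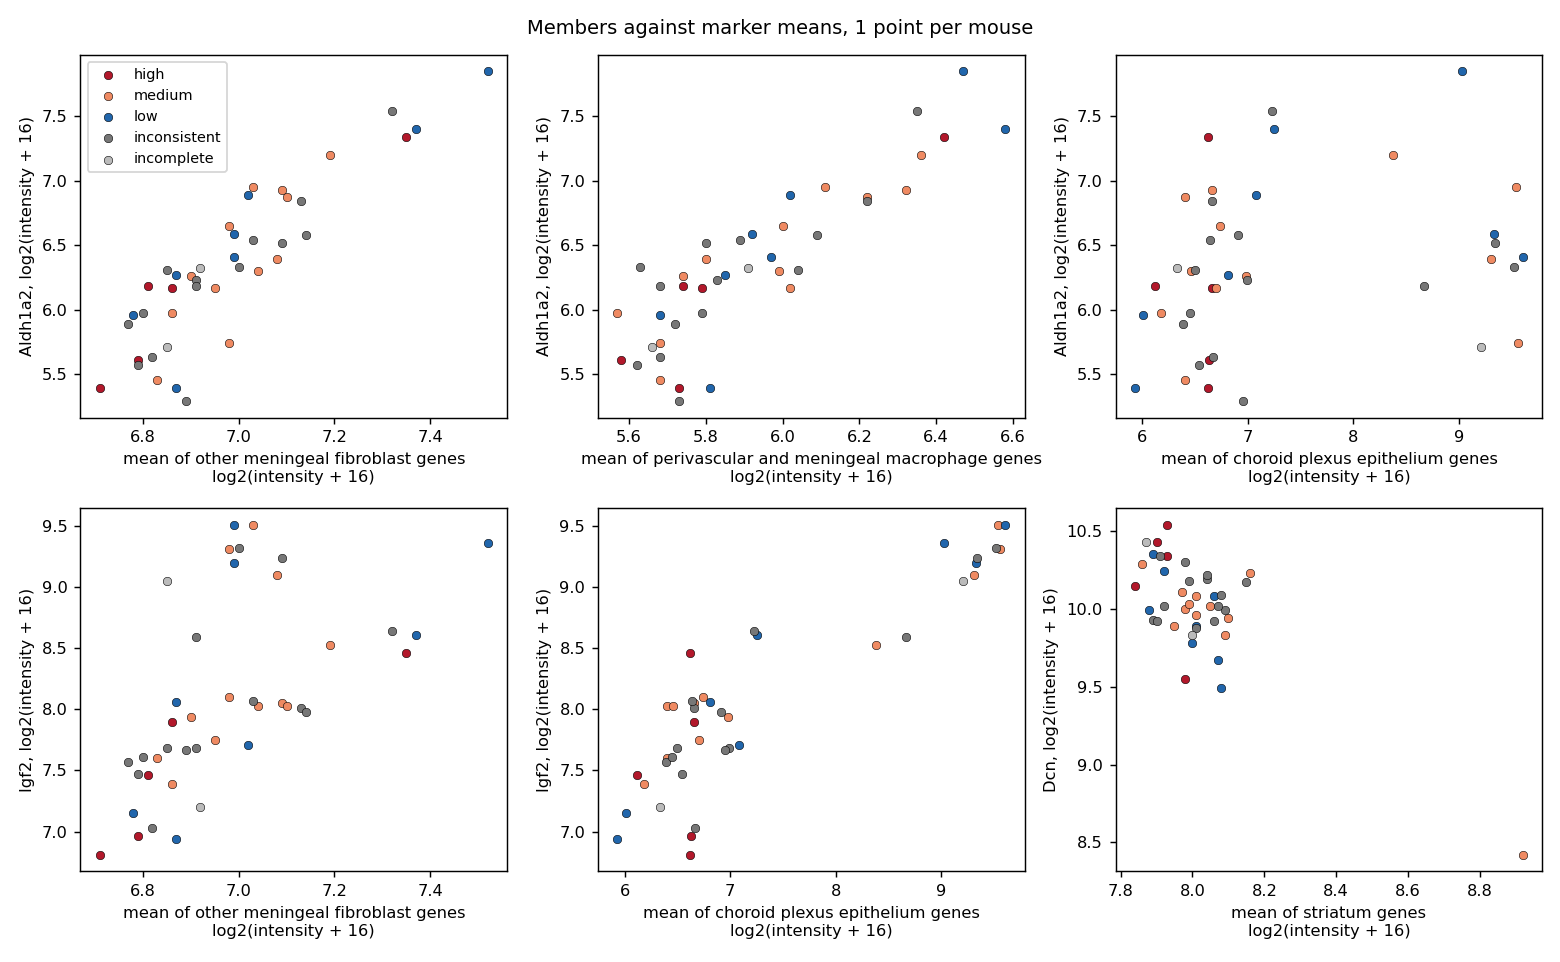
Aldh1a2, Igf2 and Dcn against the mean level of marker lists, all in log2(intensity + 16), with 1 point per mouse coloured by group. Aldh1a2 has r of 0.89 with the meningeal, 0.88 with the macrophage and 0.25 with the choroid mean, Igf2 forms 2 clusters along the choroid mean, and Dcn is lowest on the single array with a striatal mean of 8.92.

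The non-member genes most like the mean of the 7 members were taken by the highest r over the 41 arrays, as a description. Slc6a20a, a transporter of proline, led at 0.90, followed by Efemp1, Mgp, Islr, Serping1, H2-Aa, an MHC class II chain, at 0.84, and Cp, the copper-carrying ferroxidase ceruloplasmin, at 0.84. Vtn, Anxa2, Lyz1, Anxa1, Mrc1, Zic1, Ifitm2 and Bgn followed at 0.82 to 0.77. Without the 4 top arrays the 15 genes kept r of 0.54 to 0.82, and in the 30 choroid-low arrays Slc6a20a had 0.91.

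Single members had their own nearest genes. Mgp was first for Ptgds at 0.88, Col1a2 at 0.86 and Fmod at 0.87, Mrc1 was first for Aldh1a2 at 0.87 and Serping1 for Ogn at 0.82. Slc13a4, Perp and Pcolce, which enhances procollagen cleavage, were nearest to Igf2, with r of 0.83, 0.77 and 0.78 in the 30 choroid-low arrays. Rasgrf1, Lpl and Rab3c were nearest to Dcn, at 0.83, 0.82 and 0.80, and at 0.56, 0.61 and 0.64 without medium replicate 9.

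Few genes of the pathways around the members passed. Among 13 tested genes of collagen processing, 1 passed in any comparison: P4ha2, a prolyl hydroxylase subunit that modifies collagen chains, was 0.48 ± 0.09 higher in high than in medium mice (SE, limma's adjusted p = 0.028). All calls of high minus medium were lost when any 1 of high replicates 2, 3 and 4 or medium replicates 4, 7 and 10 was left out. Its r with the mean of the members was 0.09. In 11 tested genes of the insulin-like growth factor axis 0 passed, and Igfbp2, a binding protein of Igf2, differed by -0.75 ± 0.43 in high minus low (SE, limma's adjusted p = 0.679). In the retinoic acid pathway 0 of 9 passed, among other small leucine-rich proteoglycans 0 of 4, among prostaglandin genes 0 of 5 and among transporters of GABA, taurine and betaine 0 of 4. Their medians in high minus low were -0.03, -0.13, 0.09 and -0.13 in that order. In these 4 lists, taken by the brightest probe set of each gene, only Bgn of the proteoglycans had an r over 0.5 with the mean of the members, at 0.55. In collagen processing 2 of 13 did, Pcolce at 0.64 and Serpinh1 at 0.51, and in the growth factor axis 1 of 11, Igfbp7 at 0.53. The list mean of that axis had r of 0.47 to 0.59 with the 5 co-varying members (highest adjusted permutation p = 0.00803). The collagen processing mean had r of 0.25 to 0.48 with them, which passed for Aldh1a2 and Ogn alone. The r of 0.77 given for Bgn among the nearest genes came from another of its probe sets.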

How the data were processed

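The deposited table holds 1 intensity per probe set and array on a linear scale, from 0.0112 to 13549, with array medians of 22.4 to 55.2; the values had been planned for as log2. Partek and RMA appear in the submitters' processing notes; which step made these intensities is not stated there. They were quantile-normalized over 41 arrays and put on a log2(intensity + 16) scale. Of 45037 probe sets that are not array controls, 22519 at or above the median mean level were tested. The 25 high, medium and low arrays were fitted together in limma 3.58.1 (R 4.3.3), with 1 mean per group and Benjamini-Hochberg adjustment at 0.05. Correlations used two-sided tests with 100000 permutations in Python 3.11.15 with scipy 1.17.1. The fit was tested on simulated data. The number of arrays limits precision. Symbols were those of the platform annotation (34945 probe sets with 1 symbol, 932 with several, 9160 with none), and the Entrez identifiers of all 23 member probe sets were found in the RefSeq table.

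Members, lists and tests were chosen with earlier results of these data known. Beside the members, the text names the 15 genes most correlated with the mean of the tested members, the 3 most correlated with each, and, from each list, genes past the threshold and up to 4 by level or difference; further list genes named for their correlation (such as Col5a1, S100a6 and Acta2) were chosen after their values were seen. Same-numbered arrays were checked for pairing: the correlations of their deviations ran from -0.17 to 0.14, so the numbers were not taken to pair mice.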

Additional observations from a re-analysis of the deposited data

Results flagged for a closer look

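Of 20 combinations of 1 of the 10 members with a group of 4 to 10 arrays (high and low) that were examined for a value far from the rest, 1 stood out. Ogn measured 8.72 on high replicate 2, and the next highest high array had 7.42. Chance flags about 1 in 20 such groups. The same array was among the 4 highest for 7 of 8 co-varying members.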

How the results depend on the processing

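None of the 7 tested members passed in any comparison under any alternative run. Col1a1, Col3a1, Slc6a13 and the other member probe sets below the brightness limit were not followed in these runs. Of the 21 pairs, 15 passed when each of the 41 arrays was left out in turn. With no normalization 18 passed, where Dcn also passed with Ptgds, Ogn and Col1a2, and in the largest spike-in set 14, where Igf2 with Ogn was lost. With all 10 members, 28 of 45 pairs passed. The calls over all probe sets were less steady. In high minus low, 2 were called, and 2 without each array in turn. The count was 1 with all 41 arrays in the fit, with the brightest 25% of probe sets, with a variance trend and robust fit, or with inconsistent replicate 2 moved to the medium group, and 4 with the choroid mean as a covariate. In high minus medium, 7 were called, with 0 to 16 when an array was left out. The count was 23 with all 41 arrays, 354 with array weights, 11 in the brightest 25%, 15 with a variance trend and robust fit, 4 with the spike-in set as a block and 1 without a brightness filter. In both comparisons it was 0 with arrays centred on their medians, with no normalization, with the 2 groups alone, in the largest spike-in set alone, without choroid-bright arrays (chosen after seeing the data, like the 10-member count), by the exact rank-sum test and with the replicate block (2102 and 3060 at an unadjusted p under 0.05). The causes were not tested. Dcn with Col1a2 had r of -0.02, and 0.34 with no normalization. The replicate block changed no call of a tested member.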
